A study of Mus musculus with 9 samples.

Results

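Lin28a, Lin28b, Hmga1, Hmga2, Igf2bp1, Igf2bp2, Igf2bp3 and Arid3a form a group of fetal and oncofetal regulators linked through the let-7 family of microRNAs. These 8 genes were taken by symbol from the 55401 genes of the expression tables, and all 8 were found. Of these, 5 encode RNA-binding proteins, whereas Hmga1, Hmga2 and Arid3a encode DNA-binding proteins. The genes were selected with their values in these libraries already known, so that their levels and differences are given as a description without a test.

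Expression was measured by RNA-Seq in 9 libraries of splenocytes from mice transplanted with H9M cells, 3 libraries in each of 3 groups. H9M cells are an acute myeloid leukemia (AML) model made from lineage negative bone marrow of C57BL/6-Ly5.1 mice with a gammaretroviral vector for Meis1, Hoxa9 and puromycin resistance. In all groups the cells were color-coded with a lentiviral FGB-D vector (a construct for fluorescent genetic barcoding), and had been injected into lethally irradiated C57Bl6/J recipients together with helper bone marrow cells. Cells were sorted as CD45.1+, EGFRt bright, cKit+ and CD11b dim or negative for a single color code. The pre-malignant group, which the labels call pre-leukemic, came from mouse #15, killed 4 weeks after transplantation, and consisted of 1 library each for color codes 33BC-D, 38BC-D and also 43BC-D. The de novo expanded group held clone 38BC-D from mouse #13, 43BC-D from mouse #14 and 33BC-D from mouse #17 at their leukemic endpoint. The stably expanded group held the single clone 34BC-D from mice #13, #14 and #17, also at the endpoint. The ages of the mice are not given in the sources used here. The pre-malignant group thus stood for 1 mouse and the stably expanded group for 1 clone, and neither can be told apart from its group. Within the de novo and stably expanded groups no column of the tables is linked to 1 of the mice, nor within the pre-malignant group to 1 of the color codes, and libraries are numbered 1 to 3 within a group only to name them.

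Between 10379739 and 15551196 reads per library were assigned to genes. The pre-malignant libraries held reads on 27896 to 30548 genes, the de novo expanded on 23537 to 27989 and the stably expanded on 21618 to 27067. De novo library 3 stood apart from its own group, with a mean correlation of 0.945 over log2 values with the other two de novo libraries and of 0.976 with the stably expanded libraries, and comparisons with this group are therefore given with and without it. The myeloid progenitor markers were present in all libraries, with summed levels of 9469 to 10912 CPM (reads on a gene scaled to the same total of reads on genes in each library) in the pre-malignant, 4084 to 21905 in the de novo expanded and 12167 to 14564.5 in the stably expanded group. Kit, the sorted receptor, was at 245 to 287 CPM in the pre-malignant, 142 to 274 in the de novo expanded and 200.3 to 231 in the stably expanded libraries.

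LIN28A and LIN28B are RNA-binding proteins that recognize a GGAG motif in the terminal loop of let-7 precursors and block maturation to let-7. LIN28A recruits the uridylyl transferases TUT4 and TUT7 for this. Mature let-7 in turn represses mRNAs that carry matches to its seed, among them those of HMGA2, of the IGF2BP proteins, of ARID3A and of both LIN28 proteins. In fetal blood formation, LIN28B, HMGA2, IGF2BP proteins and ARID3A are high and let-7 is low, and the balance reverses in adult cells, whereas IGF2BP3 and HMGA1 are also known from acute leukemia.

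The let-7 sequences are shown because the seed is what connects these genes. RefSeq, on GRCm38.p6, lists 9 mature let-7 species of the major arm among 12 hairpins, all with the same seed at bases 2 to 8, here in capitals.
let-7a-5p: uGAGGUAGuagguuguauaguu
let-7b-5p: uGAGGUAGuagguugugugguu
let-7c-5p: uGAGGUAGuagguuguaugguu
let-7d-5p: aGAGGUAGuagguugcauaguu
let-7e-5p: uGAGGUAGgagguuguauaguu
let-7f-5p: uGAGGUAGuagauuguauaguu
let-7g-5p: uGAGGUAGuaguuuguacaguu
let-7i-5p: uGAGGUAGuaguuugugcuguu
miR-98-5p: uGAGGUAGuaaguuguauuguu

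The letters GGAG, searched on the transcribed strand only, lay between the arms of 9 of the 12 hairpins and were absent from those of Mirlet7b, Mirlet7c-2 and Mir98. Anywhere in the hairpin, GGAG occurred in 447 of 1005 RefSeq hairpins, or 44.5%, so that it is a frequent word. The hairpins with reads in these libraries were Mirlet7g (chr9:106178840-106178927, plus strand), Mirlet7f-2 (chrX:151912346-151912428, plus strand) and Mir98 (chrX:151913214-151913321, plus strand), and they are shown with GGAG, where present between the arms, in capitals.
Mirlet7g: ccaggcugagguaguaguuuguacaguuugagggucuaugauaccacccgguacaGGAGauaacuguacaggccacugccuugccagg
Mirlet7f-2: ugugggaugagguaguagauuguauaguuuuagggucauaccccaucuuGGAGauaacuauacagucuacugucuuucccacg
Mir98: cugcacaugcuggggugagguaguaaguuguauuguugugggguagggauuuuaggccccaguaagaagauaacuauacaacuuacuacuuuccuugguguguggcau

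The reverse complement of the seed in DNA letters, CTACCTC, was searched on the transcript strand in the longest annotated 3′ untranslated region of each gene (GENCODE M1 transcripts, which belong to the older build NCBIM37, so that positions count from the start of the untranslated region). It was found in all 8 genes and in 1754 of the 19915 genes searched, or 8.81%. The 8 genes were grouped through let-7 beforehand, so that nothing is read from a match in all of them, nor from the shares that follow. Because the untranslated regions of these genes are long, each was set beside those within 20% of its own length. Lin28b, with 4445 bases, held 4 matches, and 0.197% of 1013 regions of like length held as many or more. Hmga2 held 4 matches in 3014 bases, reached by 0.102% of 1966 regions, and Igf2bp1 held 4 in 6337 bases, reached by 0% of 359 regions. Lin28a and Arid3a each held 2 matches, in 2775 and 3082 bases, reached by 2.36% and 2.44% of regions of like length. A single match was found in Hmga1, Igf2bp2 and Igf2bp3, as in 9.24%, 13.1% and 14.1% of regions of like length. The sites of the 4 genes with many reads in these libraries are shown with the match in capitals, followed by the first site of Hmga2, the textbook let-7 target.
Lin28a, bases 898 to 919: agcctgttgaaCTACCTCattt
Lin28a, bases 1536 to 1557: tcgccacaaacCTACCTCactg
Arid3a, bases 1963 to 1984: caagtttctttCTACCTCaggt
Arid3a, bases 2790 to 2811: aaaactgttttCTACCTCtggt
Igf2bp3, bases 537 to 558: tttttactcaaCTACCTCaggt
Hmga1, bases 790 to 811: ctgttcacaaaCTACCTCtgga
Hmga2, bases 47 to 68: acattcaatttCTACCTCagca

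**Figure D1:**
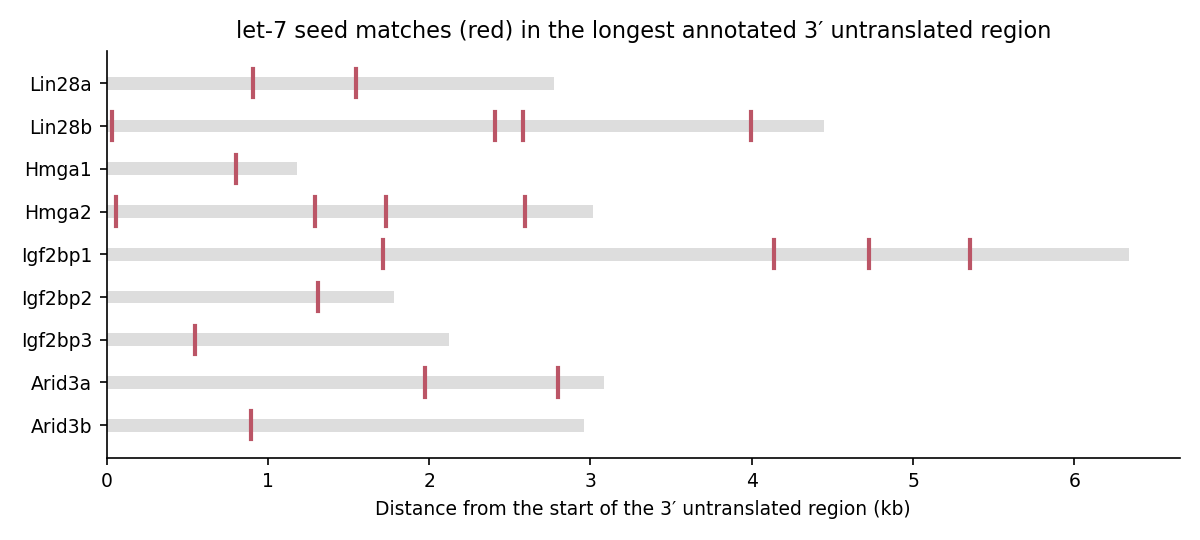
Longest annotated 3′ untranslated region of the 8 genes and of the related gene Arid3b (grey bars, length in kb) with the position of each let-7 seed match (red ticks). Lin28b, Hmga2 and Igf2bp1 hold 4 matches each, Lin28a and Arid3a hold 2, and Hmga1, Igf2bp2, Igf2bp3 and Arid3b hold 1.

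The 8 genes separated into 4 with many reads and 4 with few. In RPKM (CPM per kb of exon, the scale used to compare genes), Hmga1 and Arid3a were highest, followed by Igf2bp3 and Lin28a, whereas Lin28b, Hmga2, Igf2bp1 and Igf2bp2 never exceeded 0.154 in any library. Hmga1, an architectural chromatin protein of the AT-hook type, had 45.9 ± 5.2 (SD, n = 3) in the pre-malignant, 54.2 ± 3.59 in the de novo expanded and 54.2 ± 6.27 in the stably expanded group. Arid3a, a DNA-binding protein of the AT-rich interaction domain family, followed with 44.8 ± 2.0, 44.4 ± 9.17 and 52.1 ± 2.64, and the ranges of both genes overlapped in each group. Igf2bp3, which binds and stabilizes m6A-marked mRNAs, was at 19.3 ± 0.665, 19.3 ± 2.92 and 17.1 ± 3.56, below both in every group. Lin28a was at 4.64 ± 1.02, 6.05 ± 5.25 and 11.4 ± 3.19. Its range lay below that of Igf2bp3 in the pre-malignant and de novo expanded groups and overlapped it in the stably expanded group.

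Within the 8 genes, 1 paralog of each family carried most reads. Summed over the 9 libraries and not scaled to length, Lin28a had 3756 reads and Lin28b 29, Hmga1 had 13794 and Hmga2 47 (beside 3648 on Hmga1b, a copy of Hmga1 that is not among the 8 genes), and Igf2bp3 had 19229 against 35 for Igf2bp1 and 65 for Igf2bp2. In bulk samples, fewer expressing cells and less RNA per cell cannot be told apart, for these and all following values.

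**Figure D2:**
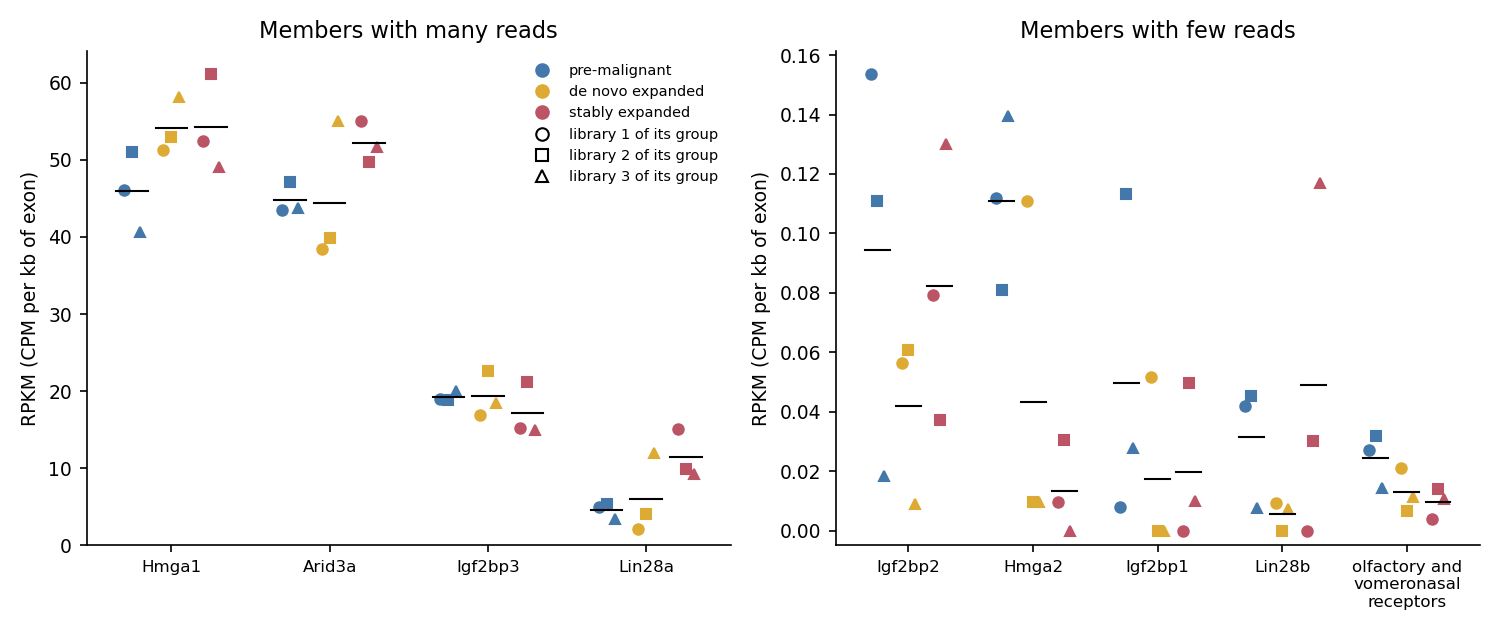
RPKM (y axis, CPM per kb of exon) in each library (symbols for libraries 1 to 3 of a group) and mean of the group (black line) for the 4 genes with many reads (left) and the 4 with few (right, on a smaller scale, beside the level over olfactory and vomeronasal receptor genes). Lin28a is higher in the 3 stably expanded than in the 3 pre-malignant libraries, and the few reads of the right panel scatter around 0 to 0.154.

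Lin28a (ENSMUSG00000050966.9, chr4:134003330-134018841, minus strand) showed the largest differences of the 4 in both comparisons with stably expanded cells. In the comparison of stably expanded with pre-malignant cells, it had normalized read counts of 825, 523 and 511 in the stably expanded libraries 1 to 3 and of 276, 290 and 188 in the pre-malignant libraries. All stably expanded libraries lay above all pre-malignant ones, with means of 620 ± 178 and 251 ± 55.5 (SD, n = 3). The log2 difference of 1.29 (SE 0.22) corresponds to 2.44-fold. Over all genes, 384 of 13968 passed an adjusted p-value of 0.05 and 2-fold in limma, or 2.75% (1.2% higher and 1.55% lower), and the groups did not overlap for 30.7%. Lin28a was the single one of the 4 measurable genes past both limits, from which nothing is read because it was chosen on these values. Leaving out any 1 library kept the log2 difference between 1.06 and 1.41. Lin28a was past both limits in 14 of 15 alternative settings. The exception was 1 fit of all 9 libraries, where 6 calls were left over all genes.

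Markers of other cells differed between the same groups. The B cell markers, all 8 detected, summed to 226 to 273 CPM in the pre-malignant and 86.0 to 107 in the stably expanded libraries. The 7 late neutrophil markers, also all detected, summed to 178 to 218 and to 521 to 4244, and the 8 myeloid progenitor markers to the higher range given above. Endothelial and stromal markers were at 233 to 249 and at 89.3 to 148 CPM. The 7 T and NK cell markers summed to 7.09 to 14.1 in the pre-malignant and 15.8 to 32.6 in the stably expanded libraries, again without overlap. The 8 erythroid markers were at 18.6 to 35.0 and 2.31 to 25.01 CPM and the 7 macrophage markers at 92.5 to 188 and 175 to 231, both with overlap. Platelet markers stayed at or below 3.04, with Ppbp and Gp1bb at 0 in all libraries. The part of these cells in the Lin28a difference was not tested.

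The de novo expanded libraries spread widely for Lin28a, with normalized read counts of 116, 229 and 687 against 283, 299 and 194 in the pre-malignant libraries of the same table. De novo libraries 1 and 2 lay below or within the pre-malignant range and library 3 far above it. The log2 difference was 0.05 (SE 0.58) with all libraries, −0.64 (SE 0.30) without de novo library 3 and 0.64 without de novo library 1. No gene of 14195 passed both limits (0%), with 1597 (11.3%) at an unadjusted p under 0.05 in limma, 64 calls by DESeq2 and 215 calls (1.51%) without de novo library 3, and none of the 4 genes was past the limits in either set. Between the same groups, erythroid markers summed to 18.6 to 35.0 CPM in the pre-malignant and 2.29 to 14.9 in the de novo expanded libraries and B cell markers to 226 to 273 and 75.8 to 225, both without overlap. T and NK cell markers ranged from 2.50 to 73.4 and macrophage markers from 62.3 to 244 CPM among the de novo expanded libraries, and the part of these cells was not tested.

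Against the de novo expanded cells, which share their libraries with the comparison above, stably expanded cells had Lin28a at 826, 523 and 510.04 normalized reads, with 111, 219.6 and 656 in the de novo expanded libraries. De novo library 3 fell within the stably expanded range and the other two below it. The log2 difference was 1.26 (SE 0.58), and 1.94 (SE 0.30) without de novo library 3. With all libraries, 1 of 13758 genes passed both limits (0.00727%), namely Gpx3, named here after its value was seen. Without de novo library 3 these were 511 genes (3.71%), with Lin28a among them, from which again nothing is read.

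**Figure D3:**
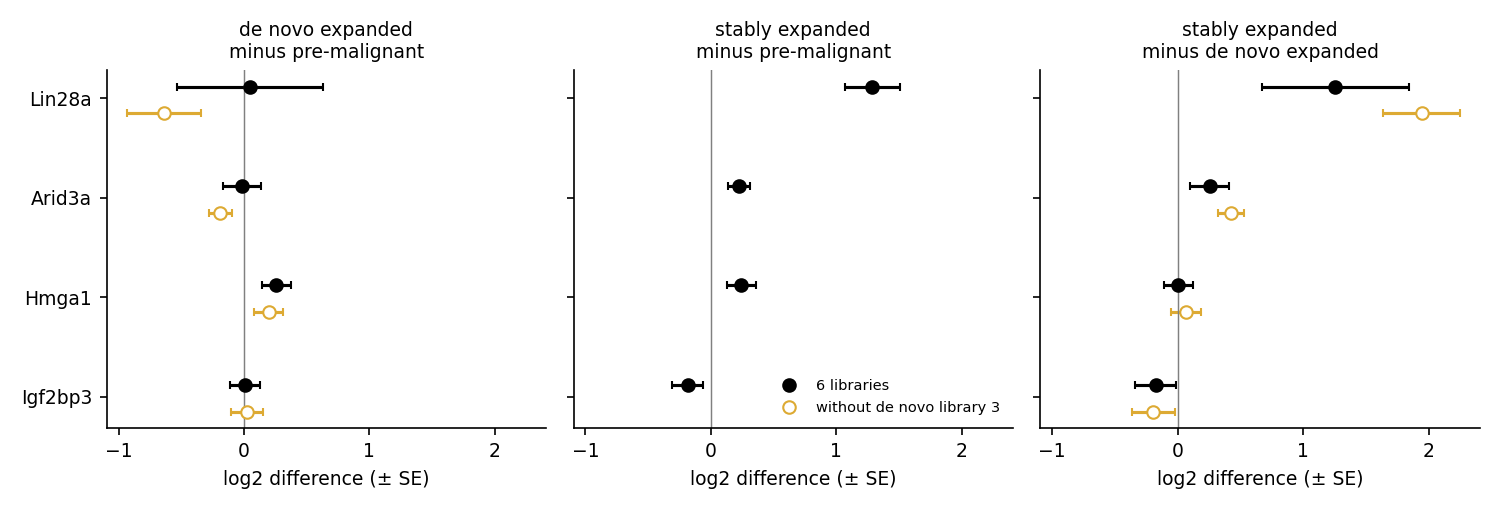
Log2 differences (points) with their SE (bars) for the 4 genes with many reads in the 3 comparisons, with 6 libraries (black) and without de novo library 3 (open). Lin28a lies at 1.29 between stably expanded and pre-malignant cells and moves from 0.05 to −0.64 and from 1.26 to 1.94 when de novo library 3 is left out, while the other genes stay within ± 0.43.

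Arid3a (ENSMUSG00000019564.12, chr10:79927043-79955018, plus strand), known from fetal B cells and from let-7 regulation, changed little in size. It was at 242, 262 and 243 CPM in the pre-malignant, at 214, 221 and 306 in the de novo expanded and at 306, 277 and 287 in the stably expanded libraries. All stably expanded libraries lay above the pre-malignant ones without overlap, and de novo library 3 again lay with the stably expanded and apart from its own group. In normalized counts the log2 difference was 0.22 (SE 0.09) between stably expanded and pre-malignant cells, where 16.1% of all genes were higher without overlap, and −0.01 (SE 0.15) between de novo expanded and pre-malignant cells. Between stably and de novo expanded cells it was 0.26 (SE 0.16), and 0.43 (SE 0.10) without de novo library 3, below 2-fold in each case.

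Hmga1 (ENSMUSG00000046711.16, chr17:27556497-27563674, plus strand) was at 97.8, 109 and 86.4 CPM in the pre-malignant, at 109, 113 and 124 in the de novo expanded and at 111, 130 and 104 in the stably expanded libraries. All de novo expanded libraries lay above the pre-malignant ones without overlap, as did 10.6% of all genes, and the stably expanded range overlapped that of both other groups. The log2 differences were 0.26 (SE 0.12) and 0.24 (SE 0.11) from the pre-malignant group and 0.00 (SE 0.11) between the leukemic groups. Hmga1b (chr11:120762794-120764419), a near-identical copy, had 23.5 to 31.7 CPM over the 9 libraries. Short reads could be split between both genes, so that the level of Hmga1 is uncertain by an amount that was not measured.

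Igf2bp3 (ENSMUSG00000029814.10, chr6:49085223-49214957, minus strand) had the most even levels among pre-malignant libraries, at 155, 154 and 164 CPM. It was at 138, 184 and 151 in the de novo expanded and at 124, 173 and 122 in the stably expanded libraries, with overlap between all groups. The log2 differences were 0.01 (SE 0.12), −0.19 (SE 0.12) and −0.18 (SE 0.16) for de novo expanded against pre-malignant, stably expanded against pre-malignant and stably against de novo expanded cells. Among the 4 genes, Igf2bp3 alone had a log2 difference below 0 in the comparison of stably expanded with pre-malignant cells, and the median of the 4 was 0.23 beside 0.00 over all genes tested.

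For the 4 genes with few reads, counts are given, since a library with 0 reads allows up to 3. Lin28b (ENSMUSG00000063804.8, chr10:45376620-45486395, minus strand), the paralog of Lin28a, had 5, 6 and 1 reads in the pre-malignant, 1, 0 and 1 in the de novo expanded and 0, 4 and 11 in the stably expanded libraries. Its groups overlapped, and 11 of the 15 stably expanded reads came from library 3. Igf2bp1 (ENSMUSG00000013415.9, chr11:95957163-96005940, minus strand), the first of the IGF2BP paralogs, had 1, 16 and 4, then 6, 0 and 0, then 0, 7 and 1 reads in the same order, again with overlap. Igf2bp2 (ENSMUSG00000033581.17, chr16:22059009-22163299, minus strand), a further paralog, had 15, 12 and 2, then 5, 7 and 1, then 9, 4 and 10 reads, and its groups overlapped as well.

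Hmga2 (ENSMUSG00000056758.14, chr10:120361275-120476469, minus strand), the AT-hook paralog of Hmga1, had 10, 8 and 14 reads in the pre-malignant, 9, 1 and 1 in the de novo expanded and 1, 3 and 0 in the stably expanded libraries. Pre-malignant libraries lay above the stably expanded ones without overlap, as 14.6% of tested genes did, although Hmga2 was below the filter and not tested. Scaled to reads on genes, the pre-malignant sum of 32 was 7.57-fold that of the 4 stably expanded reads, with an exact 95% interval for counting error of 2.68 to 29.5. Against the de novo expanded group, with 11 reads, the ratio was 2.93 (1.44 to 6.44), and 9 of these reads came from library 1. Such intervals do not cover the spread between libraries. Although their groups overlapped, pre-malignant to de novo expanded ratios were 6.04 (1.34 to 55.5) for Lin28b, 3.52 (1.37 to 10.7) for Igf2bp1 and 2.24 (1.13 to 4.70) for Igf2bp2. Pre-malignant to stably expanded ratios were 0.757 (0.324 to 1.73), 2.48 (1.06 to 6.48) and 1.19 (0.667 to 2.16) in the same order.

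A background for such low values was taken, after the data were seen, from 1731 olfactory and vomeronasal receptor genes, which blood cells are not known to use. Their level in RPKM was 0.0143 to 0.0317 in the pre-malignant, 0.00664 to 0.0209 in the de novo expanded and 0.00381 to 0.0139 in the stably expanded libraries. This background was thus higher in all pre-malignant than in all stably expanded libraries, as was Hmga2, and its part in the Hmga2 difference was not tested. Hmga2 was above the receptor level of the same library in 3 of 3 pre-malignant, 2 of 3 de novo expanded and 2 of 3 stably expanded libraries. Igf2bp2 exceeded it in 3, 2 and 3 libraries, Lin28b in 2, 0 and 2 and Igf2bp1 in 2, 1 and 1.

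Lin28a and Arid3a followed each other across libraries. In log2(CPM + 1), Pearson's r was 0.95 and Spearman's coefficient 0.92 over the 9 libraries, and r was 0.91 over 7 after the 2 libraries farthest from the median of Lin28a were left out. Arid3b, the paralog of Arid3a and a further let-7 target that is not among the 8 genes, had 19.7, 18.96 and 14.6 CPM in the pre-malignant, 4.92, 7.85 and 24.3 in the de novo expanded and 28.5, 20.97 and 21.6 in the stably expanded libraries. Its correlation with Lin28a was r = 0.87 (Spearman's coefficient = 0.95, and r = 0.72 over the same 7 libraries). With Arid3a it was r = 0.90 (Spearman's coefficient = 0.93). Here r was 0.86 over 7 libraries, after the 2 farthest from the median of Arid3a were left out. For Hmga1 and Igf2bp3, r with Lin28a was 0.50 and −0.33. The 9 libraries share mice and clones and differ in their myeloid markers, so that these values are descriptive. Mpo, which encodes the myeloperoxidase of primary granules, was named after its values were seen. It ranked among the highest of 13401 genes by Spearman's coefficient with Arid3a (1), so that this shared rank order was fixed by the selection. Mpo was at 1637, 2658 and 15796 CPM in de novo libraries 1 to 3. It was at 6143 to 7038 CPM in the pre-malignant and at 7545 to 8915 in the stably expanded libraries. The part of these markers in the relation was not tested.

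**Figure D4:**
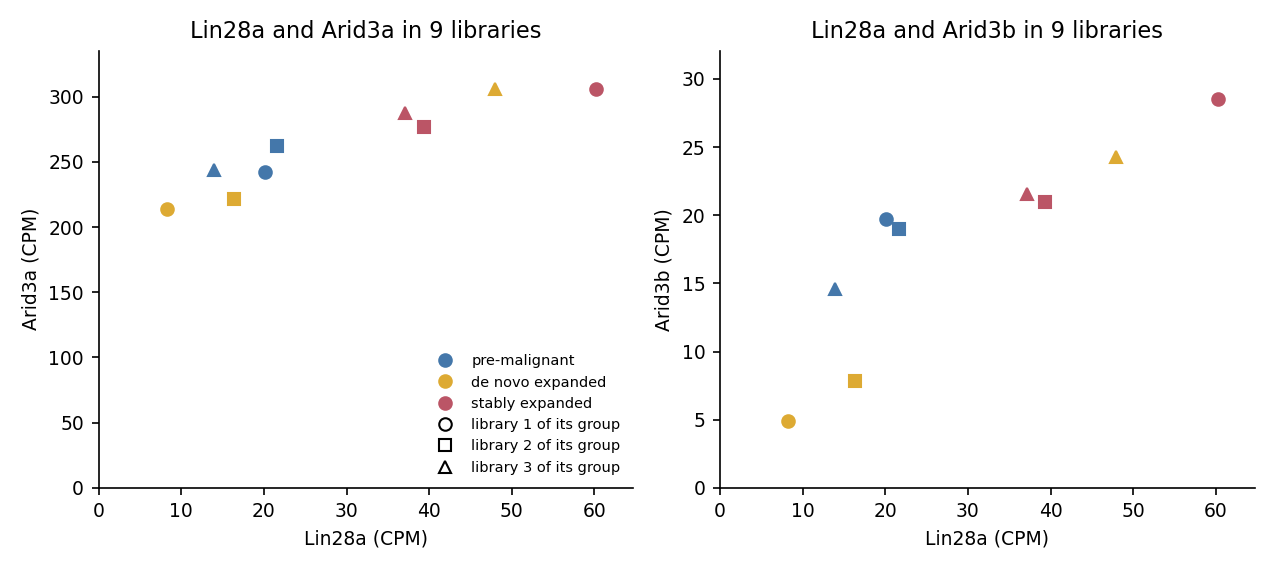
CPM of Lin28a (x axis) against Arid3a (left) and Arid3b (right) in the 9 libraries, with groups by color and libraries 1 to 3 of a group by symbol. De novo libraries 1 and 2 lie at the lower left and de novo library 3 beside the stably expanded libraries.

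Of the 13401 other genes that averaged at least 10 normalized reads in all 3 tables, those most like Lin28a over the 9 libraries were Aldh3a2 (r = 0.98), a fatty aldehyde dehydrogenase, Pglyrp1 (r = 0.98), a peptidoglycan recognition protein of neutrophil granules, and Pik3r1 (r = 0.98), the regulatory subunit of phosphoinositide 3-kinase. The top 5% of all genes had r of at least 0.85 with Lin28a, so that high values were common. Pglyrp1 ranged from 10.4 CPM in de novo library 1 to 152 in stably expanded library 1. The genes most like Arid3a were Dnajc13 (r = 0.99), an endosomal J-domain protein, Tmx4 (r = 0.99), a thioredoxin-related membrane protein, and Gfi1 (r = 0.99), a repressor needed for granulocyte formation. Those of Hmga1 were Zadh2, Chtop and Snapc2 (r = 0.94, 0.93 and 0.93), and those of Igf2bp3 were Glyctk, Ercc1 and Cpt1a (r = 0.96, 0.96 and 0.93). For Arid3a, Hmga1 and Igf2bp3, the top 5% of all genes began at r of 0.849, 0.607 and 0.613.

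Genes connected to these regulators were described through 8 lists with 148 genes besides the 8, of which 97 were expressed enough to be tested in all 3 comparisons. With Thbs1, tested between stably expanded and pre-malignant cells, and Grb10, tested in the other two comparisons, each comparison held 98. Between stably expanded and pre-malignant cells, 2 rose and 1 fell past both limits, beside 2.75% of all genes. Cdkn1c, the cyclin-dependent kinase inhibitor p57 and an imprinted gene, rose from 172, 93.8 and 39.2 to 709, 390 and 466 normalized reads (log2 difference 2.54, SE 0.43, limma adjusted p = 0.00877). Igf2r, the imprinted receptor that clears IGF2, rose from 3612, 3986 and 2158 to 7511, 5345 and 7779 (1.11, SE 0.21, adjusted p = 0.0132). Both were higher in every stably expanded than in every pre-malignant library. Socs1, a feedback inhibitor of cytokine signaling and listed let-7 target, fell from 117, 89.2 and 83.9 to 56.3, 41.9 and 41.2 normalized reads (−1.04, SE 0.28, adjusted p = 0.0479). Here too the groups were apart. None of these 3 calls held in 1 fit of all 9 libraries (adjusted p = 0.154, 0.343 and 0.143 in limma), where 6 calls were left over all genes. Without pre-malignant library 3, Igf2r was at 0.84, below 2-fold, and Cdkn1c at 1.98 was the only call left. Socs1 passed both limits in 4 of 15 alternatives and in none with 1 library left out. The B cell and late neutrophil markers given above differed between the same libraries, and their part in these values was not tested.

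By list, the imprinted growth genes had 2 of 3 tested genes past the limits, both higher, and Gnas at a log2 difference of 0.09, with 12 others untested. Of 30 tested let-7 targets, 16 had a log2 difference above 0 and 14 below, with a median of 0.07 and with Socs1 as the only call. Fas, the death receptor (0.75), and Ccnd1, cyclin D1 (−2.37), marked the ends of this list. The 21 genes of miRNA processing (median 0.01) and the 21 of m6A and mRNA stability (0.04) held no call. Their ends were Xpo5, the pre-miRNA exporter (0.36), and Trim25, a LIN28A cofactor (−0.35), and in the second list Hnrnpc (0.44) and Fxr1 (−0.22). Of the 12 tested targets of IGF2BP and HMGA proteins in leukemia, 9 were above 0 and none passed both limits. Rac2, a hematopoietic GTPase, differed by 0.61 (adjusted p = 0.0158), below 2-fold, and Kit by −0.30. Of the embryonic and oncofetal genes 2 of 19 were testable, Dnmt3l at 0.90 and Dnmt3b at −0.26, and neither passed. In the ARID family 9 of 12 were below 0, with Arid5a at −0.63 (adjusted p = 0.0179, below 2-fold) and Arid3b at 0.42 as its ends, and none passed both limits.

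**Figure D5:**
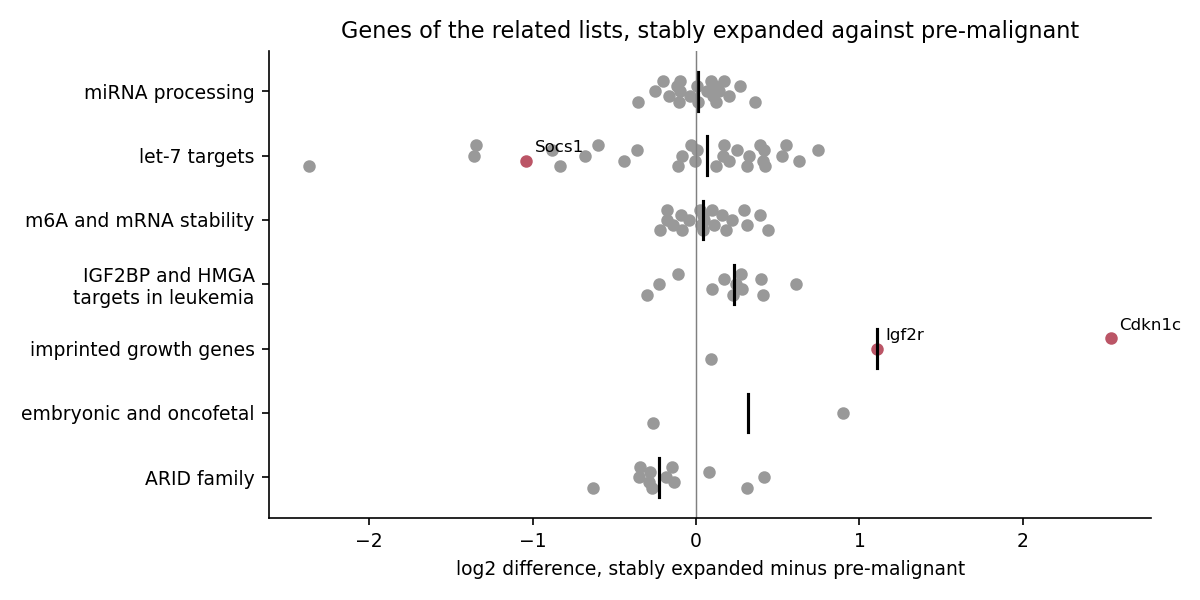
Log2 differences between stably expanded and pre-malignant cells for the tested genes of 7 lists (points, genes past both limits in red and named) with the median of each list (black line); the let-7 precursors had no testable gene. Cdkn1c at 2.54 and Igf2r at 1.11 lie to the right and Socs1 at −1.04 to the left.

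Between de novo expanded and pre-malignant cells none of the 98 tested genes passed both limits in limma (0% of all genes), with 1 call by DESeq2. At an unadjusted p under 0.05, 7 were higher and 10 lower, beside 5.99% and 5.26% of all genes. The 12 tested ARID family genes all had log2 differences below 0, as did 49% of all genes, with a median of −0.28 beside 0.01 over all genes. Of these, 5 had an unadjusted p under 0.05, beside the 5.26% given above. The ends were Kdm5b, a histone demethylase (−1.47), and Arid1a, a chromatin remodeling subunit (−0.06). Among the let-7 targets, Irs2, an adaptor of insulin and IGF receptors, was at −1.24, with an adjusted p of 0.330 in limma. The ends of the other lists were Tarbp2 (0.36) and Ago4 (−0.52) in miRNA processing, Matr3 (0.35) and Ythdf3 (−0.22) in mRNA stability, Ccna2 (0.43) and Kit (−0.37) among the leukemia targets, and Grb10 (2.39) and Gnas (0.02) among the imprinted genes, and of the 2 embryonic genes Dnmt3l was at 0.39 and Dnmt3b at 0.09. Leaving out de novo library 3 gave 6 calls beside 1.51% of all genes. Ccnd2 and Ccnd1, the D-type cyclins, were then higher (1.74 and 2.06), and Tnfaip3 (−1.003), Arid3b (−1.49), Igf1r (−1.58) and Kdm5b (−2.42) lower. Ccnd2 shows the contrast between the libraries, with 859 and 707 normalized reads in de novo libraries 1 and 2, 22.5 in library 3 and 213 to 262 in the pre-malignant libraries.

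Between stably and de novo expanded cells none of the 98 genes tested there passed with all libraries (2 higher and 1 lower at an unadjusted p under 0.05 in limma, beside 4.83% of all genes, and 0 calls by DESeq2). The largest log2 differences were those of Cdkn1c (2.30) and Grb10 (−3.58) among the imprinted genes, of Arid3b (1.26) and Ccnd1 (−2.19) among the let-7 targets and of Kdm5b (1.57) and Arid1b (−0.18) in the ARID family. The ends of the other lists were Ago4 (0.74) and Tarbp2 (−0.25), Fto (0.18) and Syncrip (−0.12), Rac2 (0.51) and Myc (−0.31), and Dnmt3l (0.52) and Dnmt3b (−0.34). Without de novo library 3, Cdkn1c (3.41), Igf2r (1.74), Arid3b (1.92) and Kdm5b (2.52) were higher and Ccnd2 (−3.07) and Map4k4 (−1.05) lower past both limits. Cdkn1c had 49.4 and 44.1 normalized reads in de novo libraries 1 and 2 and 472 in library 3, within the stably expanded range of 390 to 710.

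The let-7 precursors themselves gave no testable value. Of 14 listed genes 13 were matched, and reads fell on Mirlet7g (65 over the 9 libraries), Mir98 (43), Mirlet7f-2 (13) and the host transcript Mir99ahg (21), while the other 9 hairpins had 0 reads in all libraries. Mirlet7g lies within Wdr82 on the same strand, and Mir98 and Mirlet7f-2 within Huwe1, so that reads of these host transcripts cannot be told apart from precursor reads. Mirlet7g had 5, 7 and 4 reads in the pre-malignant, 6, 17 and 14 in the de novo expanded and 6, 6 and 0 in the stably expanded libraries, with overlap between the groups. Among other transcripts that contain hairpins by position, 6720427I07Rik, over Mirlet7a-1, Mirlet7d and Mirlet7f-1, was at 6.20 to 13.1 CPM over the 9 libraries. Lncppara, over Mirlet7b and Mirlet7c-2, was at 6.35 to 10.95 in the pre-malignant, 6.27 to 10.7 in the de novo expanded and 3.92 to 7.42 in the stably expanded libraries. Mature let-7 was not measured in these libraries.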

How the data were processed

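According to the study's methods, stranded total RNA libraries went through the nf-core/rnaseq pipeline (genome GRCm38.p6, annotation GENCODE M25), and the submitters' processing notes name Trim Galore 0.6.4, STAR 2.6.1d and featureCounts 1.6.4. Whether counting used strand is not given in the sources used here. The deposited values are a signal: counts per gene, scaled by the authors with size factors from DESeq2, separately in each of 3 tables of 6 libraries. The authors' own fold changes, p-values and Wald statistics were not used. At least 99.995% of the values above 0 came out as whole reads (tolerance 0.05 reads), and CPM and RPKM were computed from these reads. Limits for a count of 0 (3 reads) and intervals cover counting error only.

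Genes that averaged at least 10 normalized reads were tested within a table with limma 3.58.1 (trend, two-sided, checked on simulated data) on log2(normalized count + 1), which understates the change of low genes. Calls needed a 2-fold difference and an adjusted p-value (Benjamini-Hochberg) under 0.05. The 3 pre-malignant libraries share 1 mouse and the 3 stably expanded ones 1 clone, so p-values measure only the spread between these libraries. The 8 genes and all lists were chosen with earlier results of these data known. Named besides these were, per list and comparison, the calls and the tested genes with the largest rise and fall (of which 1 is not reported here), and the 3 genes of highest Pearson's r on log2(CPM + 1). Calls without de novo library 3, receptor genes, Hmga1b, Mpo and let-7 host transcripts were named after their values were seen. Alternatives used edgeR 4.0.16 and DESeq2 1.42.0, among others. Sequences come from RefSeq tables (GRCm38.p6) and GENCODE M1 transcripts.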

Additional observations from a re-analysis of the deposited data

How the results depend on the processing

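No paired analysis was possible because the columns are linked to a group but, within it, not to 1 of the mice or color codes that groups share. Over 15 alternatives per comparison, for de novo expanded against pre-malignant cells, Lin28a changed sign in 2 of these, Igf2bp3 in 5 and Arid3a in 4, and between the leukemic groups Hmga1 did in 5. By Spearman's coefficient, 1 of the 3 genes nearest to Lin28a, 1 to Hmga1, 2 to Igf2bp3 and 0 to Arid3a remained.

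Of all genes, the calls between de novo expanded and pre-malignant cells rose from 0 to 5 without a filter on low values, 64 with DESeq2 and 5 in 1 fit of all 9 libraries, and ranged from 0 to 215 with 1 library left out, the highest without de novo library 3. Between stably expanded and pre-malignant cells they went from 384 to 6 in 1 fit of all 9 libraries and 1110 without a fold limit, and ranged from 205 to 458. Between the leukemic groups they went from 1 to 2 without a filter, 32 with DESeq2 and 2 in 1 fit of all 9 libraries, and ranged from 0 to 511, again highest without de novo library 3.

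Of the list genes, calls between de novo expanded and pre-malignant cells rose from 0 to 1 with DESeq2 and ranged from 0 to 6 with 1 library left out. Between stably expanded and pre-malignant cells they went from 3 to 0 in 1 fit of all 9 libraries and 12 without a fold limit, and ranged from 1 (without pre-malignant library 3) to 5 (without stably expanded library 2). Between the leukemic groups they ranged from 0 to 6. The cause of these changes was not tested. Few reads limit what the values of Lin28b, Hmga2, Igf2bp1 and Igf2bp2 can show, with at most 16 reads in a library.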
